A study of Mus musculus with 8 samples.

Results

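RNAseq libraries of cultured osteoclasts carry the numbers 1 to 4 within each genotype, and the 4 libraries numbered 1 or 2 were compared with the 4 libraries numbered 3 or 4. The meaning of the numbers is not given in the labels. The genes compared were the 13573 autosomal genes, of 46517 genes in the table, that reached a normalized count of 10 or more in 4 or more of the 8 libraries. The contrast was chosen by these same normalized counts, whose main axis of variation parts the libraries in this way, so its differences are given as a description, with their size and spread and without a p-value. The genes *9930022D16Rik* and *Ager* lay just inside the filter, with 10.0 in the library that decided, and *A830005F24Rik* and *Fam222a* lay just outside it, with 9.89.

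The cultures came from femoral bone marrow of mice 6 to 8 weeks old. Marrow cells were kept for 16 h, and the non-adherent cells were then grown with 10% medium conditioned by L929 cells, a source of M-CSF, and, for 7 days, with GST-RANKL at 50 ng/ml, a fusion form of the cytokine that induces osteoclasts. Each genotype had 4 mice with 1 library per mouse, sequenced as paired 75 bp reads. The controls were *Elmo1*+/-, which the sample titles call WT, and they carried 1 deleted *Elmo1* allele, whereas the *Elmo1*-/- mice carried none that was intact. No Cre is named for these mice. Each side of the comparison therefore held 2 *Elmo1*+/- and 2 *Elmo1*-/- mice. The study describes littermates matched for age and sex and 2 experiments that each took 2 mice of either genotype, but neither the experiment nor the sex of each mouse is given in the sources used here.

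Osteoclasts arise when macrophage-lineage precursors exposed to M-CSF and RANKL fuse into multinucleated cells. The transcription factor NFATc1 switches on their program, which includes proteases, a proton pump and its chloride channel for acidifying the bone surface, and podosomes that seal the resorbing zone. Precursors leave the cell cycle and lose part of their macrophage character as they mature, and resorbing cells draw on abundant mitochondria and imported iron. A culture dish therefore holds macrophages, precursors and osteoclasts side by side. In bulk RNA such as this, a smaller number of cells of a type and less RNA per cell cannot be told apart.

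The 2 sides did not differ in genotype, but they differed in genes of the sex chromosomes. *Xist*, the RNA made from an inactive X chromosome, had a normalized count of 0 in *Elmo1*+/- mice 1 and 2 and *Elmo1*-/- mouse 1. It was 6929 in *Elmo1*-/- mouse 2, and 5634, 5279, 5369 and 5931 in the libraries numbered 3 or 4. *Ddx3y*, a Y-linked RNA helicase gene, was 1302, 1484 and 1114 in the 3 libraries without *Xist*, and at most 0.835 in the other 5. *Uty*, *Kdm5d* and *Eif2s3y*, which are also Y-linked, parted the libraries in the same way. Numbers 1 and 2 thus held libraries of both kinds, since *Elmo1*-/- mice 1 and 2 differed in this pattern, and numbers 3 and 4 held 1 kind. The labels give no sex to set this against, and which mice were matched for sex is not given. Whether the library labelled *Elmo1*-/- mouse 2 is as labelled was not tested beyond its *Elmo1* count. The sex-linked pattern and the number pair differed in 1 library alone, which limits how far their parts can be told apart, and results are given below with this pattern as a further term.

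Reads on genes were between 25646712 and 35861440 in the libraries numbered 1 or 2 and between 20905502 and 40846651 in those numbered 3 or 4, so depth overlapped. The mitochondrial share of reads was 0.492 to 0.977% and 0.639 to 0.925%, respectively. The *Elmo1* gene, ENSMUSG00000041112 at chr13:20090596-20608353 of GRCm38, encodes an adaptor of the DOCK family exchange factors that activate Rac. Its normalized count was 1528, 1423, 1769 and 1651 over the numbers 1 to 4 of the *Elmo1*+/- mice and 274, 287, 316 and 291 over those of the *Elmo1*-/- mice, with means of 1593 ± 150.3 and 292 ± 17.6 (SD, n = 4). All 8 libraries stood on the side of their genotype label. The difference was -2.44 on the log2 scale (SE 0.07, limma adjusted p = 5.04e-08).

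The first principal component of the 13573 genes held 62.2% of the variance and the second 10.6%. Along the first, the libraries numbered 1 or 2 lay at -21.4 and -24.6 in *Elmo1*+/- and at -50.6 and -7.53 in *Elmo1*-/-, and those numbered 3 or 4 lay between 23.6 and 31.0. The 4 libraries numbered 3 or 4 were close together, while *Elmo1*-/- mice 1 and 2 marked the ends of the other side. The SD of log2 values within the 4 libraries had a median over genes of 0.152 for numbers 1 and 2 and of 0.0955 for numbers 3 and 4, and it was larger on the former side for 72.0% of genes.

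**Figure D1:**
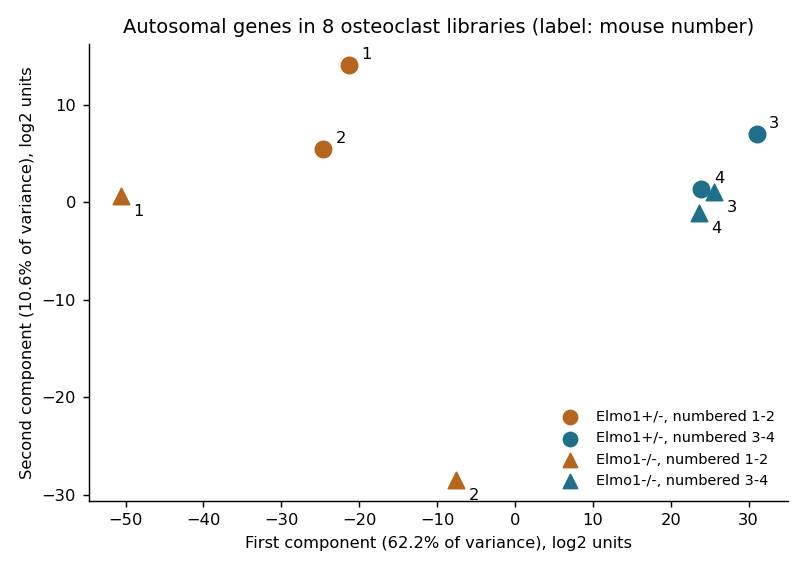
Scores of the 8 libraries on the first and second principal component of log2(normalized count + 1) over 13573 autosomal genes, with genotype and number marked. Libraries numbered 1 or 2 lie at negative scores on the first component, from -50.6 to -7.53, and those numbered 3 or 4 lie from 23.6 to 31.0.

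Differences below are log2(normalized count + 1) of numbers 3 and 4 minus numbers 1 and 2, with genotype as a further term. A gene is called higher or lower in numbers 3 and 4 when the Benjamini-Hochberg adjusted p of limma over all genes was under 0.05, which here serves only to set the size of a difference against the spread between mice. The calls covered 4434 of 13573 genes, or 32.7%, with 2300 higher (16.9%) and 2134 lower (15.7%). Of the called genes, 486 had a difference of at least 1 and 106 of at most -1, so large differences were mostly toward higher values in numbers 3 and 4. The 4 and 4 libraries did not overlap for 4624 genes (34.1%), of which 2459 stood above and 2165 below. The number of calls was 2750, 2811 and 2825 when mouse 1, 2 or 3 of *Elmo1*+/- was left out, 2784 without *Elmo1*-/- mouse 3 and 2823 without mouse 4. It was 6652 without *Elmo1*-/- mouse 2, the library that carried *Xist* among numbers 1 and 2. Since these shares were read on the contrast that chose the libraries, the counts within gene lists are given beside them only for scale.

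In the following, values in individual libraries are normalized counts in the order *Elmo1*+/- mice 1 and 2, *Elmo1*-/- mice 1 and 2, and then *Elmo1*+/- mice 3 and 4, *Elmo1*-/- mice 3 and 4. Among the 10 highest differences of called protein-coding genes with a mean of at least 50 and no overlap between the sides were cytoskeletal, matrix and membrane genes. *Dtna*, which encodes a dystrobrevin that anchors membrane proteins to actin, was 24.8, 21.8, 4.73 and 25.1 against 152, 106, 83.5 and 103, a difference of 2.67 (SE 0.41). *Wdfy1*, the gene of an endosomal FYVE-domain protein, was 373, 289, 1064 and 354 against 2547, 2494, 2466 and 2384 (2.46, SE 0.34). *Elmo1*-/- mouse 1 was highest of its side for *Wdfy1* and lowest for *Dtna*. *Fbln7*, a fibulin of the extracellular matrix, was 74.5, 73.2, 28.4 and 32.3 against 273, 274, 270 and 240.4 (2.45, SE 0.21). *Corin*, a membrane serine protease known for processing natriuretic peptide, was 119, 92.9, 43.5 and 71.8 against 512, 377, 415 and 363 (2.41, SE 0.20). For each of these genes, as the limit of no overlap requires, the lowest library numbered 3 or 4 was above the highest numbered 1 or 2. The other 6 were *Ifi202b* (2.59), *Clic5* (2.45), *Anxa8* (2.44), *Mustn1* (2.41), *Samd12* (2.38) and *Fam107a* (2.29), with *Clic5* known as an intracellular chloride channel protein bound to actin.

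The 10 lowest genes under the same limits held chemokine, lipid and immune genes. *Ccl8*, a monocyte-attracting chemokine, was 376, 398, 942 and 175 against 73.1, 89.5, 105 and 107 (-2.09, SE 0.42). *Fxyd2*, a regulatory subunit of the sodium pump, was 1629, 1771, 2415 and 940 against 355, 492, 453 and 404 (-1.92, SE 0.25). *Apoe*, the apolipoprotein through which macrophages export cholesterol, was 6177, 7328, 19396 and 4808 against 2121, 1914, 2352 and 2216 (-1.91, SE 0.38). In these 3 genes *Elmo1*-/- mouse 1 was the highest of all libraries and *Elmo1*-/- mouse 2 the lowest of numbers 1 and 2, without reaching the other side. The remaining genes were *Ifitm6* (-1.69), *Gpr162* (-1.60), *Cd177* (-1.55), *Lifr* (-1.50), *Slc9a9* (-1.40) and the class I genes *H2-Q7* (-1.47) and *H2-Q6* (-1.46). *H2-Q7* and *H2-Q6* are near-identical copies, so how reads were divided between them is uncertain. All 20 of these genes kept their call whichever library was left out, which follows in part from their choice as the largest differences without overlap.

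Genes of bone resorption were higher in numbers 3 and 4 almost throughout. Of 20 resorption genes, 19 were called higher and none lower, and their median difference was 0.93 against -0.01 over all 13573 genes. *Ctsk* at chr3:95499256-95509362, the cathepsin that digests bone collagen, was 154959, 113012, 69531 and 103706 against 317524, 308065, 328164 and 311600 (1.58, SE 0.17). Its means were 110302 ± 35154 and 316338 ± 8797 (SD, n = 4), so the spread was smaller on the side with the higher level. *Atp6v0d2*, the proton pump subunit typical of osteoclasts, was 10022, 9366, 5156 and 10556 against 24945, 24164, 25761 and 24879 (1.56, SE 0.20). *Ckb*, the brain-type creatine kinase that feeds ATP to the pump, was 47757, 34482, 20482 and 28030 against 92502, 86884, 96670 and 84052 (1.53, SE 0.18). *Car2*, the carbonic anhydrase that supplies the protons, was 4071, 3927, 1993 and 5607 against 9681, 8733, 10421 and 10545 (1.42, SE 0.27). For all 4 genes the sides were apart and *Elmo1*-/- mouse 1 was the lowest library. *Acp5*, which encodes the osteoclast marker enzyme TRAP, differed by 1.28 (SE 0.17), and *Mmp9*, the abundant gelatinase, by 0.60 (SE 0.10). Together *Ctsk*, *Acp5* and *Mmp9* took 1.29 to 2.0% of reads in numbers 1 and 2 and 3.13 to 3.53% in numbers 3 and 4. *Sigirr*, an inhibitory receptor of the interleukin-1 family, was the member not called, at -0.13. The resorption count was 18 or 19 whichever library was left out.

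Fusion genes were mixed. Of 14 tested, 8 were called higher and 3 lower, where 16.9% and 15.7% of all genes were, and their median was 0.51. *Dcstamp* and *Ocstamp* encode the membrane proteins needed for precursors to fuse. *Dcstamp* was 7661, 5927, 3626 and 5196 against 15830, 15653, 16398 and 15816 (1.56, SE 0.16). *Ocstamp* was 1780, 1880, 1056 and 2131 against 3718, 2998, 4270 and 4170 (1.18, SE 0.21). *Siglec15*, a sialic acid receptor of the osteoclast surface, was 154, 187, 89.9 and 244 against 538, 442, 578 and 666 (1.79, SE 0.28). These genes stood clear of the other side in every library numbered 3 or 4. The 3 members called lower were *Adam8* (-0.28), *Cd81* (-0.51) and *Trem2* (-0.52), the last a receptor of macrophages and osteoclast precursors that signals through DAP12. Without *Elmo1*-/- mouse 2 the number called lower was 6.

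Among 19 osteoclast transcription factors, 6 were called higher and 1 lower, where 16.9% and 15.7% of all genes were. *Nfatc1*, the master regulator, was 3717, 3932, 2680 and 4301 against 5020, 5157, 5800 and 5914 (0.60, SE 0.14), a smaller difference than that of *Ctsk* or *Dcstamp*. *Bhlhe40*, a basic helix-loop-helix factor, differed by 0.94 (SE 0.14), *Fosl2*, a Fos family partner in AP-1, by 0.79 (SE 0.17), and *Jdp2*, a Jun dimerization factor, by 0.69 (SE 0.12). *Prdm1*, which encodes the repressor Blimp1, differed by 0.63, and *Ppargc1b*, a coactivator for mitochondrial genes, by 0.65 (SE 0.13). *Relb*, of the alternative NF-kB pathway, was called lower at -0.21, and no factor of this list was called lower without any 1 of the 7 libraries other than *Elmo1*-/- mouse 2. Of 8 repressors of osteoclast genes, 4 were called lower and 3 higher, and *Cebpb* (-0.36) was not called. *Irf8* was 3613, 3396, 4375 and 3453 against 2636, 2374, 2455 and 2555 (-0.56, SE 0.08). It encodes a macrophage factor that holds back NFATc1, and *Bcl6* (-0.20) and *Irf2bp2* (-0.48) were also called lower. In contrast, the inhibitors of DNA binding *Id3* (1.54, SE 0.16), *Id1* (1.43, SE 0.17) and *Id2* (0.68, SE 0.10) were called higher. *Id3* was 106, 116, 91.8 and 127 against 280, 251, 434 and 342, with no overlap.

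**Figure D2:**
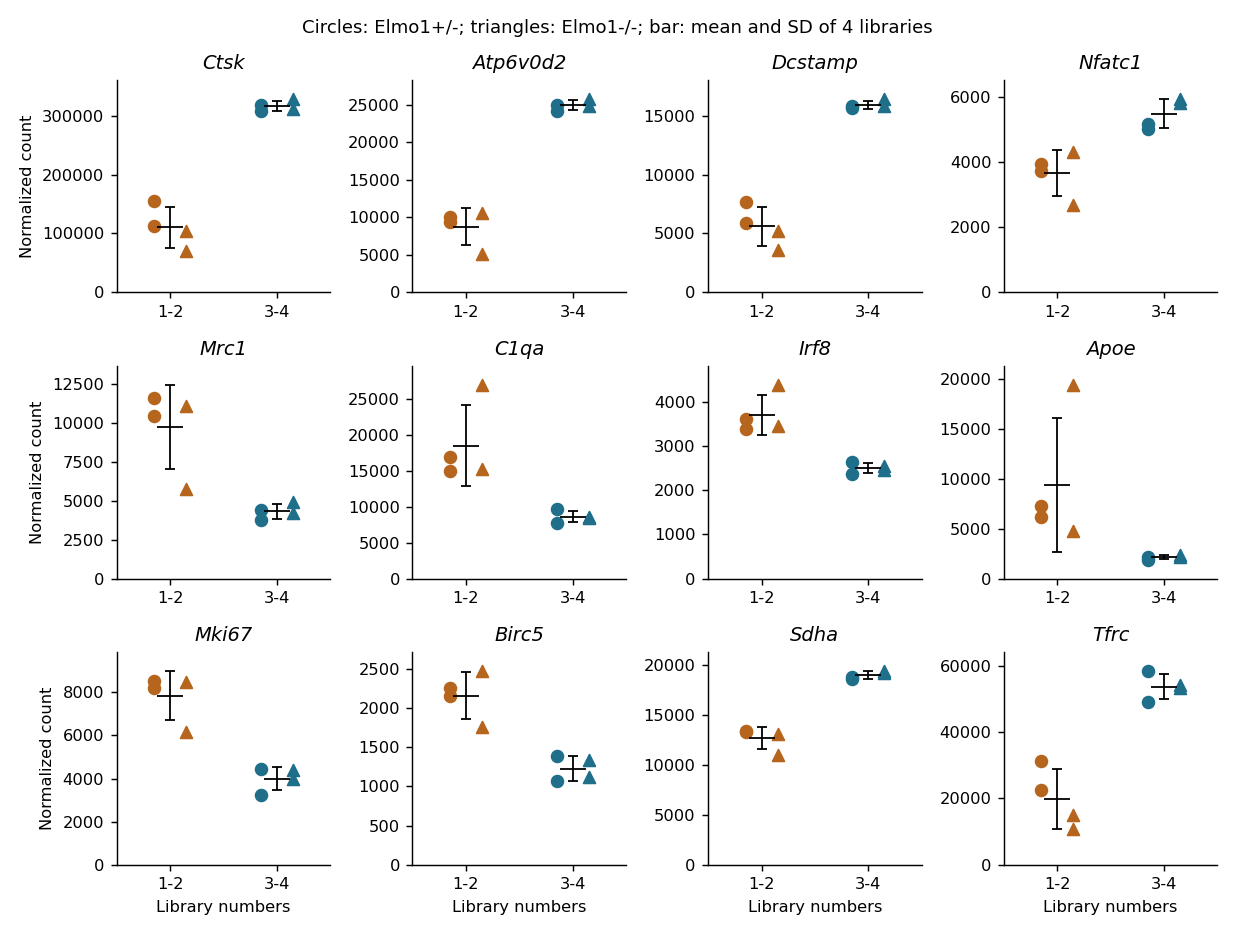
Normalized counts of 12 selected genes in each of the 8 libraries, 1 panel per gene with a linear axis from 0, numbers 1-2 on the left and 3-4 on the right (circles *Elmo1*+/-, triangles *Elmo1*-/-, bars mean and SD of 4 libraries). *Ctsk* lies between 69531 and 154959 on the former side and between 308065 and 328164 on the latter.

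Podosome genes tilted the same way as the resorption genes. Of 22 tested, 11 were called higher and none lower, with a median of 0.26. *Cttn*, the actin-binding protein cortactin, was 1487, 1347, 1051 and 2021 against 3831, 3414, 3739 and 3210 (1.30, SE 0.17). *Dock5*, a Rac exchange factor of osteoclasts, was 3659, 3980, 2456 and 4144 against 7082, 6575, 7034 and 6774 (0.98, SE 0.14). Neither gene overlapped between the sides. *Arhgef5*, a guanine nucleotide exchange factor, differed by 1.12 (SE 0.17), and *Sh3pxd2a*, the podosome scaffold TKS5, by 1.10 (SE 0.18). The count called higher was 9 to 14 with 1 library left out.

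The V-ATPase is the proton pump of lysosomes and of the osteoclast ruffled border. Of its 15 tested subunit genes, 13 were called higher and 1 lower, with a median of 0.55, and these counts did not move when any library was left out. *Atp6v1a*, the catalytic subunit, was 27192, 26152, 19141 and 27221 against 46905, 44740, 45105 and 44788 (0.88, SE 0.10). *Atp6v1b2*, its partner in the catalytic ring, differed by 0.95 (SE 0.12) and *Atp6v1d*, of the central stalk, by 0.78 (SE 0.07). The exceptions were subunits of the membrane sector. *Atp6v0a1*, at 5475, 5402, 5502 and 4922 against 4314, 4026, 4214 and 4830, was called lower (-0.29, SE 0.07). *Atp6v0d1*, the widely expressed counterpart of *Atp6v0d2*, was 11499, 10764, 11231 and 10014 against 11018, 11074, 10998 and 10323 (SE of the difference 0.06, not called).

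MITF and its relatives TFEB and TFE3 bind the palindrome TCACGTGA in promoters of lysosomal and V-ATPase genes, and RefSeq promoters (GRCm38.p6, 250 bases before to 50 after the start site) were matched by symbol for 9634 of the genes. The palindrome was found in 3 of 10 V-ATPase promoters (30%), in 1 of 15 resorption promoters (6.7%) and in 2.0% of all 9634. The 30-base stretches around these 4 matches are shown because 3 genes with the match were called higher and 1 was not. The capitals mark the palindrome, which reads the same on both strands. *Atp6v1a* carries it 132 bases before the start site, on the minus strand at chr16:44139373-44139402. *Atp6v0d1* has it 4 bases before the start, also on the minus strand, at chr8:105566050-105566079. In *Atp6v0e* it begins at base 3 of the transcript (plus strand, chr17:26676387-26676416) and in *Clcn7*, the chloride channel that accompanies the pump, at base 7 (plus strand, chr17:25133386-25133415).
Atp6v1a: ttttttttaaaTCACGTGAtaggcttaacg
Atp6v0d1: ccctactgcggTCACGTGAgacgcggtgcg
Atp6v0e: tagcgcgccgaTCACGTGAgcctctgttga
Clcn7: ccgatgatagaTCACGTGAgacctgggcgc
The difference was 0.88 for *Atp6v1a*, 0.37 for *Atp6v0e* and 0.55 for *Clcn7*, while *Atp6v0d1* did not differ beyond its SE, so the match did not part called from uncalled subunits. A match describes letters in a window and not binding.

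Macrophage genes were called lower in numbers 3 and 4 more often than higher. Of 29 macrophage surface and scavenger genes, 13 were called lower and 2 higher, with a median of -0.36. *Siglec1*, the sialoadhesin of tissue macrophages, was 15299, 16148, 21037 and 8693 against 5156, 5516, 5688 and 7793 (-1.29, SE 0.25). *Mrc1*, the mannose receptor, was 10475, 11636, 11104 and 5770 against 4384, 3750, 4234 and 4942 (-1.13, SE 0.21). In both genes *Elmo1*-/- mouse 2 was the lowest of numbers 1 and 2 and stood near the other side. *C1qa*, a complement chain made by macrophages, was 14964, 16917, 26912 and 15306 against 9719, 7716, 8496 and 8638 (-1.06, SE 0.17), and *C1qb* differed by -0.98 (SE 0.17). *Lyz2*, the abundant myeloid lysozyme, took 4.42 to 5.10% of reads against 3.24 to 3.37%. *Adgre1*, which encodes the macrophage marker F4/80, was 108777, 107469, 100429 and 97262 against 97672, 76358, 88081 and 107630, with overlap and no call (-0.17, SE 0.11). *Csf1r*, the M-CSF receptor (-0.20), and *Msr1*, a scavenger receptor (-0.05), were not called either. The 2 members called higher were *Clec7a*, the beta-glucan receptor (0.61), and *Itgax*, an integrin chain (0.98, SE 0.25). *Itgax* was 168, 193, 167 and 408 against 467, 387, 401 and 466, with *Elmo1*-/- mouse 2 inside the range of the other side. *Itgax*, *Clec7a*, *Csf1r*, *Msr1*, *Adgre1*, *Lyz2* and the uncalled or opposite members of other lists were picked after their values were seen. The number called higher was 0 without *Elmo1*-/- mouse 1 or *Elmo1*+/- mouse 3, so that both calls ended, and 1 without *Elmo1*+/- mouse 1, 2 or 4 or *Elmo1*-/- mouse 4. The number called lower was 9 to 17 with 1 library left out. The PU.1 core GAGGAA, bound by the factor that sets up the myeloid lineage, was found on either strand in 13 of 22 macrophage promoters (59.1%) and in 27.0% of all 9634. Those 22 promoters had a median GC content of 47.5%, against 60.7% for all. For all genes called lower GAGGAA was in 28.9% of 1569 promoters, and for those called higher in 26.3% of 1699. The 59.1% therefore describes the gene list and not the difference between the libraries.

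Of 12 genes of MHC class II presentation, which display antigen to T cells, 4 were called lower and none higher, where 15.7% and 16.9% of all genes were. *H2-Ab1* was 215, 200, 274 and 183 against 136, 103, 97.7 and 111 (-0.95, SE 0.15), without overlap, and *Ctss*, the cathepsin that trims the invariant chain, differed by -0.44 (SE 0.10). *Cd74*, the invariant chain itself (-0.69), lost its call without *Elmo1*+/- mouse 2 (-0.65) or *Elmo1*-/- mouse 3 (-0.67), and *Cd80*, a costimulatory ligand (-0.27), lost it without *Elmo1*+/- mouse 1 (-0.26) or mouse 2 (-0.27). Without *Elmo1*+/- mouse 2 only 2 of the 12 were called.

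Interferon-stimulated genes had a median of -0.36, but of 38 tested only 6 were called lower and 1 higher. Over all 13573 genes 15.7% were called lower and 16.9% higher, so the list's share called lower was near that of all genes. The member called higher was *Gbp7*, a guanylate-binding protein (0.45). The spread in numbers 1 and 2 was wide, as in *Irf7*, the transcription factor that amplifies the response, which was 9340, 9260, 25956 and 6032 against 4038, 5759, 4960 and 7253 (-1.0, SE 0.41, not called). *Elmo1*-/- mouse 1 was far above the other libraries, and *Elmo1*-/- mouse 2 lay within the range of numbers 3 and 4. *Bst2*, which tethers virions to the membrane, differed by -0.78, and its call ended without *Elmo1*+/- mouse 3 (-0.77) or *Elmo1*-/- mouse 3 (-0.74). *Mx2* (-0.80) and *Oas1g* (-0.71) lost their calls without 5 of the 8 libraries, and *Oas2* (-0.62) without 3. The number called lower in the list was 2 without *Elmo1*+/- mouse 1, 1 without mouse 2, 0 without mouse 3 or without *Elmo1*-/- mouse 3, 2 without *Elmo1*-/- mouse 4 and 13 when *Elmo1*-/- mouse 2 was left out.

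Cytokine and chemokine genes went both ways, with 6 of 27 called higher and 6 lower, where 16.9% and 15.7% of all genes were. *Il1a*, which encodes interleukin-1 alpha, was 281, 208, 215 and 438 against 1022, 576, 668 and 790 (1.45, SE 0.25). Its locus overlaps that of *Gm14023*, and the strand setting of the read counting is not given, so reads of the overlap cannot be assigned. *Lif*, a cytokine of the interleukin-6 family, was 463, 389, 200 and 261 against 828, 682, 704 and 707 (1.22, SE 0.17). *Nos2*, inducible nitric oxide synthase, differed by -0.96 and lost its call without 6 of the 8 libraries. The sign of *Nos2* turned with the sex-linked pattern as a further term (0.092) and in the libraries with *Xist* alone (0.14), 2 settings described below. *Ccl12*, a monocyte chemokine (-0.79), lost it without *Elmo1*-/- mouse 3 (-0.72). The number called lower was 2 without *Elmo1*+/- mouse 1, 3 without *Elmo1*-/- mouse 1, *Elmo1*+/- mouse 3 or mouse 4, and 1 without *Elmo1*-/- mouse 3.

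Lysosomal genes other than the pump had no shared direction, with 4 of 28 called higher and 8 lower and a median of -0.08. Of all genes, 16.9% were called higher and 15.7% lower, so the share called higher was near that of all genes. *Ctsd*, the aspartic cathepsin, was 444810, 390988, 498741 and 325116 against 311929, 277968, 280642 and 313333 (-0.47, SE 0.13). *Ctsd* lost its call without *Elmo1*+/- mouse 1 (-0.43), *Elmo1*+/- mouse 4 (-0.43) or *Elmo1*-/- mouse 3 (-0.45), and *Lgmn*, the asparaginyl protease legumain (-0.60), without 5 of the 8. The number called higher was 1 without *Elmo1*+/- mouse 2, *Elmo1*-/- mouse 3 or mouse 4 and 2 without *Elmo1*+/- mouse 3. The number called lower was 3 without *Elmo1*+/- mouse 1 or *Elmo1*-/- mouse 3, 4 without *Elmo1*+/- mouse 4, 5 without *Elmo1*+/- mouse 2 or mouse 3, and 14 without *Elmo1*-/- mouse 2.

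Cell cycle genes were lower in numbers 3 and 4. Of 40 tested, 32 were called lower and none higher, with a median of -0.52, and 30 to 33 were called lower with any 1 library left out. *Mki67*, the proliferation antigen of cycling cells, was 8203, 8511, 8486 and 6155 against 3234, 4423, 4388 and 3964 (-0.97, SE 0.13). *Cenpf*, a kinetochore protein of mitosis, was 660, 888, 770 and 676 against 298, 433, 448 and 357 (-0.97, SE 0.14). *Birc5*, which encodes the mitotic regulator survivin, was 2150, 2256, 2469 and 1761 against 1067, 1390, 1332 and 1121 (-0.81, SE 0.12). No library of one side reached the other in these genes. *Cenpa*, the centromeric histone, differed by -0.78 (SE 0.14). The 8 members not called included the cyclins of early G1, with *Ccnd1* at 0.27 and *Ccnd2* at 0.32, and the inhibitors *Cdkn1a* (-0.15) and *Cdkn1b* (-0.13). *Ccnd2* was 220, 171, 268 and 268 against 321, 260, 269 and 294.

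Of 35 DNA replication genes, 13 were called lower and none higher, with a median of -0.21. *Tk1*, the thymidine kinase of S phase, was 2294, 2328, 2655 and 2159 against 1258, 1579, 1500 and 1415 (-0.71, SE 0.09), with its locus overlapping *Afmid*. *Pole*, the leading-strand polymerase, differed by -0.57 (SE 0.11), *Rfc5*, of the clamp loader, by -0.46 (SE 0.09), and *Tyms*, thymidylate synthase, by -0.45 (SE 0.09). *Pcna*, the sliding clamp, was 4518, 4094, 4958 and 5124 against 4105, 4683, 4123 and 4284, with overlap and no call. The number called lower was 8 without *Elmo1*+/- mouse 2 or mouse 3 or without *Elmo1*-/- mouse 3 or mouse 4, and 23 without *Elmo1*+/- mouse 4.

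Genes of G2 and mitosis often carry the cell cycle homology region, TTTGAA, near the start site, commonly with CCAAT boxes. Searched on both strands, TTTGAA was in 16 of 31 cell cycle promoters (51.6%) and in 12.1% of all 9634, and CCAAT was in 71.0% and 38.5%. The E2F site TTTCCCGC was in 6 of 30 replication promoters (20%) and in 2.2% of all. Stretches of 3 of the cell cycle genes whose values are given above follow, with TTTGAA in capitals. In *Mki67* it begins 98 bases before the start site (minus strand, chr7:135716460-135716489), in *Cenpa* at base 17 of the transcript (plus strand, chr5:30666890-30666919) and in *Cenpf* at base 3 (minus strand, chr1:189688067-189688096).
Mki67: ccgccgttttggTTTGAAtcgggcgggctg
Cenpa: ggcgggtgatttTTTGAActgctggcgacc
Cenpf: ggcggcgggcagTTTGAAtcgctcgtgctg
These genes differed by -0.97, -0.78 and -0.97. The shares describe the gene list, whose members are known for such sequences, and not the difference between the libraries. For all genes called lower, TTTGAA was in 14.9% of 1569 promoters, and for those called higher in 10.4% of 1699.

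With all 8 libraries, genes of mitochondrial metabolism were called in 1 direction, toward higher values in numbers 3 and 4. All 18 tested genes of the TCA cycle were called higher, with a median of 0.48, and 15 to 18 were called with 1 library left out. *Idh3a*, a subunit of isocitrate dehydrogenase, was 3920, 3802, 3023 and 4718 against 6173, 6175, 6097 and 5925 (0.67, SE 0.11). *Sdha*, the flavoprotein shared by the cycle and complex II, was 13390, 13275, 11016 and 13084 against 18808, 18615, 19262 and 19380 (0.59, SE 0.07). The sides were apart in each of these, and *Mdh1*, the cytosolic malate dehydrogenase, differed by 0.62 (SE 0.07). Of 52 nuclear genes of the respiratory chain, 22 were called higher and none lower, with a median of 0.13. *Uqcrc2*, a core subunit of complex III, was 6371, 6414, 5069 and 6699 against 9978, 9565, 9535 and 9337 (0.65, SE 0.08), and *Ndufs1*, of complex I, differed by 0.53 (SE 0.09). Respiratory chain genes were called higher in 16 to 23 cases and lower in 0 to 3 with 1 library left out. The mitochondrial genome's own share of reads overlapped between the sides, as given above.

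Glycolytic genes were lower where called, apart from 3. Of 24 tested, 10 were called lower and 3 higher. *Slc16a3*, the lactate exporter MCT4, was 5449, 4676, 5094 and 3158 against 2890, 2537, 2585 and 2799 (-0.74, SE 0.14). *Gapdh* differed by -0.49 (SE 0.07), although near-identical pseudogene copies make its count uncertain. *Ldhb*, the lactate dehydrogenase subunit of oxidative tissues, was called higher at 1480, 1422, 1014 and 1598 against 2293, 2192, 2868 and 2769 (0.89, SE 0.15), as were *Pfkm*, a phosphofructokinase (0.37), and *Pdk1*, a pyruvate dehydrogenase kinase (0.39). *Slc2a1*, the glucose transporter GLUT1 (-0.45), lost its call without 6 of the 8 libraries. The number of glycolytic genes called lower was 5 without *Elmo1*+/- mouse 1 or mouse 3, 6 without *Elmo1*-/- mouse 3 and 16 when *Elmo1*-/- mouse 2 was left out. Hypoxia-inducible genes were called lower in 6 of 19 cases and higher in 3, where 15.7% and 16.9% of all genes were. *Ankrd37*, a HIF target of unsettled function, was at -0.70 (SE 0.15) and *Selenbp1*, a selenium-binding protein, at -0.53 (SE 0.13). For that list the number called lower was 2 without *Elmo1*+/- mouse 1, *Elmo1*-/- mouse 1 or *Elmo1*+/- mouse 4, 3 without *Elmo1*+/- mouse 2, mouse 3 or *Elmo1*-/- mouse 3, and 10 without *Elmo1*-/- mouse 2.

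Lipid genes were called in both directions. Of 20 genes of fatty acid synthesis and LXR targets, 12 were called lower and 3 higher, with a median of -0.55. *Abcg1*, the cholesterol exporter induced by LXR, was 2154, 2442, 2899 and 1470 against 968, 1155, 1013 and 1206 (-1.01, SE 0.19). *Lpl*, the lipase that frees fatty acids from lipoproteins, was called higher at 10034, 11364, 10992 and 17442 against 18163, 23890, 22042 and 23950 (0.85, SE 0.15), with *Acly*, ATP citrate lyase (0.34), and *Plin2*, a lipid droplet coat protein (0.29). *Scd1*, the stearoyl-CoA desaturase (-1.13), lost its call without 4 of the 8 libraries and *Fads2*, another desaturase (-0.89), without 6. Of 21 cholesterol synthesis genes, 6 were called higher and 1 lower, where 16.9% and 15.7% of all genes were. *Idi1*, of the isoprenoid step, differed by 0.69 (SE 0.15) and *Hsd17b7*, a late enzyme of the pathway, by 0.49 (SE 0.11). Only 2 of that list were called higher without *Elmo1*+/- mouse 4, *Elmo1*-/- mouse 3 or mouse 4. None was called lower without *Elmo1*+/- mouse 1, 2, 3 or 4 or *Elmo1*-/- mouse 1 or 3, and 4 were when *Elmo1*-/- mouse 2 was left out.

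Of 15 genes of iron handling, 4 were called higher and 3 lower, where 16.9% and 15.7% of all genes were. *Tfrc*, the transferrin receptor that imports iron, was 31303, 22564, 10736 and 14919 against 58292, 49135, 54128 and 53319 (1.55, SE 0.22). *Fth1*, the ferritin heavy chain that stores it, was 940832, 865071, 1111297 and 761416 against 652111, 646186, 627378 and 622135 (-0.52, SE 0.12). *Elmo1*-/- mouse 1 was the lowest of the 8 libraries for *Tfrc* and the highest for *Fth1*. *Ncoa4*, the receptor that delivers ferritin for breakdown, differed by 0.82 (SE 0.19). *Steap4*, a metalloreductase (0.68), lost its call without 4 of the 8 libraries, and the number called lower was 7 without *Elmo1*-/- mouse 2.

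Stress and translation genes were lower where called, with heat shock genes apart. Of 18 endoplasmic reticulum chaperones, 10 were called lower and none higher, among them *Sdf2l1* (-0.42, SE 0.06) and *Pdia6*, a disulfide isomerase (-0.34, SE 0.07), as well as *Xbp1*, a transcription factor of the unfolded protein response (-0.34, SE 0.07). That count was 6 without *Elmo1*+/- mouse 1, mouse 2 or mouse 3. ATF4 targets were called lower in 5 of 20 cases, where 15.7% of all genes were. *Pck2*, a mitochondrial gluconeogenic enzyme, was at -0.53 and without a call when *Elmo1*+/- mouse 3 was left out (-0.48). The ATF4 count was 3 without *Elmo1*+/- mouse 1, 2 without mouse 2 or *Elmo1*-/- mouse 3, 1 without *Elmo1*+/- mouse 3 and 13 when *Elmo1*-/- mouse 2 was left out. Antioxidant genes under NRF2 were called lower in 6 of 20 cases, where 15.7% of all genes were, and in 10 without *Elmo1*-/- mouse 2. The 6 included *Prdx6* (-0.44, SE 0.07), the NRF2 inhibitor *Keap1* (-0.41, SE 0.10) and the quinone reductase *Nqo1* (-0.30, SE 0.06). Heat shock genes were called higher in 3 of 13 cases, where 16.9% of all genes were, and in 1 without *Elmo1*+/- mouse 1, mouse 2 or mouse 4. The co-chaperone *Dnaja1* differed by 0.26 (SE 0.06). Of 49 ribosomal protein genes, 29 were called lower and none higher, with a median of -0.26, and *Rps28* differed by -0.43 (SE 0.08). These genes have many pseudogene copies that can share their reads. The ribosomal count was 16 without *Elmo1*+/- mouse 1, 12 without mouse 2 or mouse 3, 17 without *Elmo1*-/- mouse 3 and 12 without mouse 4.

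Immediate early genes were called higher in 2 and lower in 4 of 18 cases, where 16.9% and 15.7% of all genes were. *Ier3*, a stress-induced survival gene (-0.92), and *Btg2*, an antiproliferative p53 target (-0.88), lost their calls without *Elmo1*-/- mouse 1 (-0.78 and -0.77), and with it left out none of the list was called lower. The number called lower was 2 without *Elmo1*+/- mouse 1, 2, 3 or 4 or without *Elmo1*-/- mouse 3. *Egr2*, a zinc finger factor (0.69), and *Klf2*, a Krüppel-like factor (-0.50), each lost their call without 6 of the 8 libraries. The sign turned for *Egr2* with the sex-linked pattern as a term (-0.029) and for *Klf2* in the libraries with *Xist* alone (0.011).

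**Figure D3:**
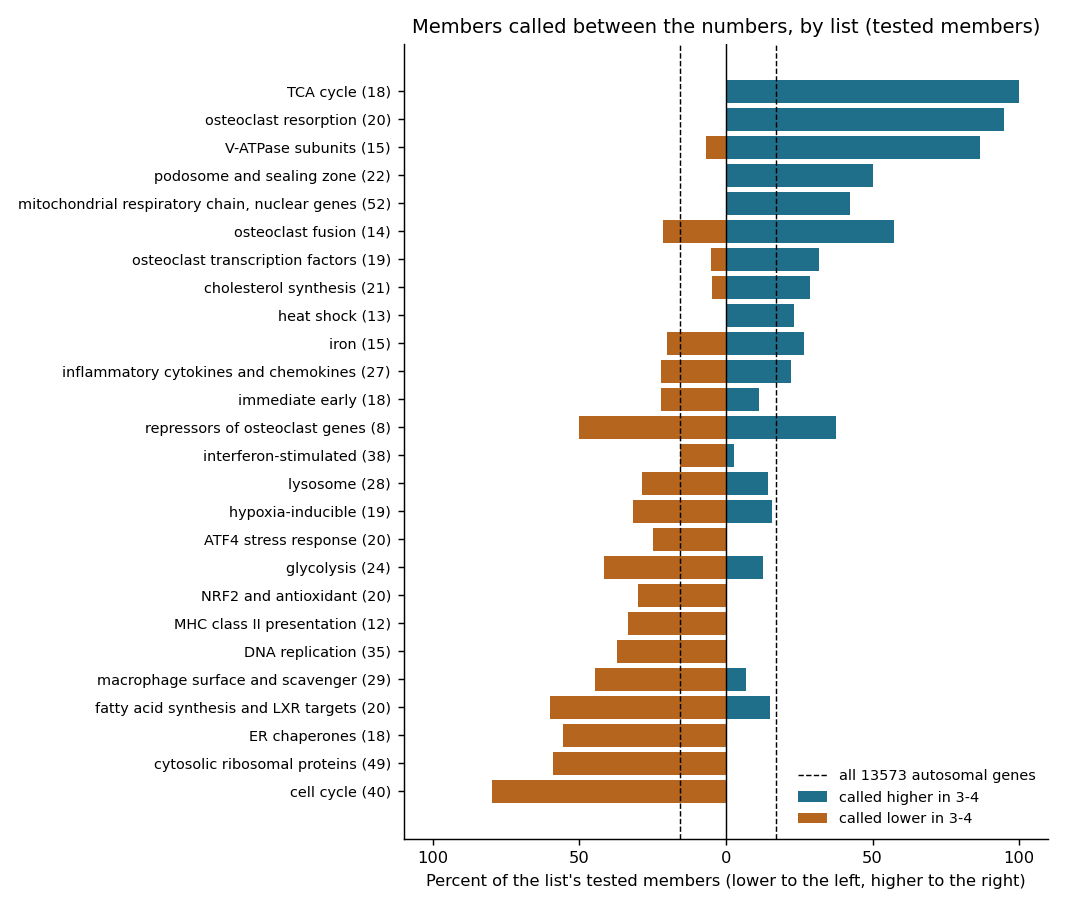
Percent of the tested members of each functional list called higher in numbers 3-4 (bars to the right) or lower (bars to the left), with the number tested in parentheses and dashed lines at the shares of all 13573 genes (16.9% and 15.7%). TCA cycle, resorption and V-ATPase genes have the longest bars to the right (18 of 18, 19 of 20 and 13 of 15), and cell cycle genes the longest to the left (32 of 40).

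Markers of the cell types that such a culture could hold were summed per library. The 10 osteoclast markers, all called higher, summed to 450909 to 692445 normalized counts in numbers 1 and 2 and to 1029113 to 1173015 in numbers 3 and 4. Of 10 macrophage markers, 6 were called lower and none higher, with sums of 251075 to 310547 against 192724 to 243437, so that the labelled cell type was strongly marked on both sides beside macrophage RNA. Neutrophil and granulocyte precursor markers summed to 27436 to 36492 against 24201 to 26116. Of these, 1 of 14 was called lower, where 15.7% of all genes were: *S100a8* (-0.61), a calcium-binding protein of myeloid cells. All 14 differences were negative, with a median of -0.52, but the median was 0.41 with the sex-linked pattern as a further term. Markers of dendritic cells (109 to 196 against 148 to 198), mast cells (65 to 84 against 83 to 104), B cells (348 to 693 against 262 to 372) and T or NK cells (107 to 248 against 61 to 125) were low, and *Cd209a*, *Cma1*, *Igll1*, *Cd3g*, *Ncr1* and *Gzma* were at 0 in every library. Stromal and osteoblast markers overlapped, at 2849 to 3277 against 2125 to 3428, and adipocyte markers summed to 575 to 721 against 387 to 493 with *Plin1*, *Cidec*, *Lep* and *Cfd* at 0. Endothelial markers summed to 1018 to 1424 against 1468 to 1585. Erythroid and megakaryocyte markers summed to 21593 to 28464 against 25479 to 29764, most of it *Pf4*, a chemokine that myeloid cells also make, with *Hba-a2*, *Hbb-bs* and *Slc4a1* at 0. The part of these cell types in the differences was not tested.

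Differences also moved with gene length and base composition. With genes in 4 equal bins by GC content, in the lowest bin 21.8% were called higher and 8.90% lower, and in the highest 12.3% and 24.3%. In the shortest of 4 bins by length, of 57 to 1829 bases, 10.1% were called higher and 17.6% lower, and in the longest, from 4584 bases, 23.4% and 12%. The part of length and base composition in the differences was not tested. Calls were spread over the autosomes, from 30.3% of genes on chromosome 12 to 37.6% on chromosome 14.

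Within each genotype most genes had the same direction, but far fewer were called in *Elmo1*-/-. In the 4 *Elmo1*+/- libraries alone 4159 genes were called (30.6%), and in the 4 *Elmo1*-/- libraries alone 73 (0.538%). In *Elmo1*+/- the numbers and the sex-linked pattern split the libraries in the same way, so they cannot be told apart there. In *Elmo1*-/- mouse 2 carried *Xist* and mouse 1 did not, so their side held both kinds. The differences in the 2 genotypes, which come from separate mice, correlated across genes with a Pearson coefficient of 0.787 and a Spearman coefficient of 0.766 (n = 13573 genes, which are not independent replicates), and 80.8% had the same sign. The genes share the same normalization and depth within a library. Among the 671 genes with a difference of at least 1 in size in *Elmo1*+/-, 96.0% had the same sign in *Elmo1*-/-, against 72.5% of the 7586 genes with under 0.25. The median of the resorption list was 0.58 in *Elmo1*+/- and 1.34 in *Elmo1*-/-, and that of the cell cycle list -0.54 and -0.50.

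**Figure D4:**
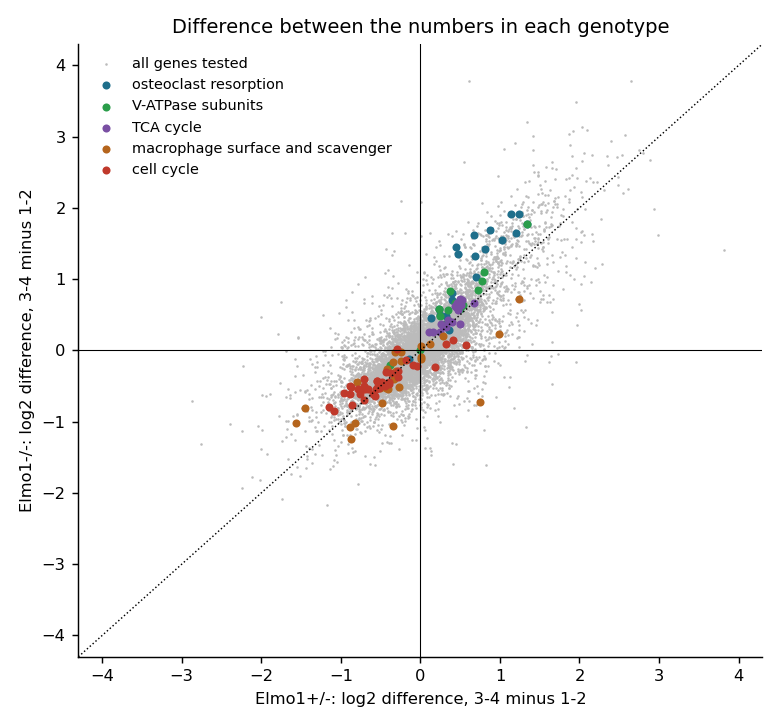
Log2 difference of numbers 3 and 4 minus numbers 1 and 2 in *Elmo1*-/- (vertical axis) against that in *Elmo1*+/- (horizontal axis) for 13573 autosomal genes, with 5 gene lists in color and a dotted line where both are equal. Most points lie in the quadrants where both have the same sign (80.8%). In *Elmo1*+/- the numbers and the sex-linked pattern split the libraries alike.

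*Elmo1*-/- mice 1 and 2 stood apart from each other. On a scale where 0 is the mean of *Elmo1*+/- mice 1 and 2 and 1 is that of mice 3 and 4, the median place over the 4159 genes called in *Elmo1*+/- was -0.368 and 0.466 for *Elmo1*-/- mice 1 and 2 and 0.950 and 0.923 for mice 3 and 4. Mouse 1 thus lay beyond the *Elmo1*+/- libraries of its number and mouse 2 part of the way to the other side. This scale follows the sex-linked pattern as well as the numbers, since both split the *Elmo1*+/- libraries alike. *Elmo1*-/- mouse 2 shared *Xist* with the side at 1, and *Elmo1*-/- mouse 1 lacked it. For 17 resorption genes the places of mice 1 and 2 were -0.836 and -0.374, both below the *Elmo1*+/- level, and for 14 V-ATPase genes -0.553 and -0.148. For 28 cell cycle genes they were -0.0250 and 0.312. For 14 glycolytic genes they were -0.239 and 0.714, for 9 hypoxia-inducible genes 0.0644 and 0.975, and for 17 macrophage genes -0.620 and 0.436. *Elmo1*-/- mouse 2 therefore stood near the libraries numbered 3 or 4 in glycolytic and hypoxia-inducible genes and near those numbered 1 or 2 in resorption and V-ATPase genes. Neither place was particular to these lists. Mouse 2 also lay at 0.864 for lysosomal, 0.808 for immediate early, 0.793 for ATF4 and 0.777 for heat shock genes. For the TCA cycle it lay at 0.0432 and for the respiratory chain at -0.123. The other functional lists placed lay between 0.173 and 0.610.

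Whether the contrast differed between the genotypes was tested by the interaction term, which the choice of libraries did not use. Both *Elmo1*+/- mice numbered 1 or 2 lacked *Xist*, but of the *Elmo1*-/- mice only mouse 1 did. The interaction therefore also carries the sex-linked pattern, and the 2 cannot be told apart in it. No gene was called by limma (0%) or by edgeR, with 358 and 365 genes at an unadjusted p under 0.05, and DESeq2 called 9 (229 unadjusted). Each unadjusted count is below the share of 0.05 of genes that such a test passes where nothing differs. The 9 were *Msln*, *Serpine2*, *Gm10925*, *Mst1r*, *Itgb3*, *Oscar*, *Tfrc*, *Cx3cr1* and *Acp5*. The smallest p was that of *Msln*, which encodes mesothelin, a surface glycoprotein. It was 271, 296, 170 and 187 against 361, 306, 523 and 510, a difference of 0.23 in *Elmo1*+/- and 1.53 in *Elmo1*-/- (interaction 1.30, SE 0.18, limma adjusted p = 0.851). *Mst1r*, the receptor tyrosine kinase RON, was 846, 832, 535 and 663 against 1169, 1097, 1536 and 1529 (interaction 0.93, SE 0.16, limma adjusted p = 1.00). *Serpine2*, a protease inhibitor, was 2091, 1914, 1298 and 1372 against 2742, 2955, 3152 and 3657 (0.84, SE 0.14), and *AA467197*, which is also known as *Nmes1*, was 287, 261, 396 and 371 against 358, 314, 251 and 249 (-0.91, SE 0.17), both with the same adjusted p as *Mst1r*. *Fbln7* had an interaction of 1.16 (SE 0.23). With *Elmo1*-/- mouse 1 left out 177 genes were called for the interaction, and without *Elmo1*-/- mouse 2, 233, where the lone *Elmo1*-/- library of its side is assumed to vary like the others.

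The genotype difference was tested with the number pair as a term. *Elmo1* was the gene called, 1 of 13573 (0.00737%), both with the term and without it. An unadjusted p under 0.05 was found for 395 genes with the term and 127 without. Both counts are below the share of 0.05 of genes that such a test passes where nothing differs. edgeR called 1 gene and DESeq2 6, and without *Elmo1*+/- mouse 2 limma called 3. For *Elmo1* itself the difference between the numbers was 0.16 (SE 0.07, not called), and its interaction was -0.10 (SE 0.14, limma adjusted p = 1.00).

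With the sex-linked pattern as a further term, which only *Elmo1*-/- mouse 2 separates from the number pair, 177 genes were called (1.3%), 150 higher and 27 lower, of which 160 were also called without the term. Of the 4434 genes called without it, 97.3% kept their sign, and the median of those called higher went from 0.45 to 0.28 and of those called lower from -0.41 to -0.21. With the term, the difference between the numbers rests on 1 library. It sets *Elmo1*-/- mouse 2 against the 4 libraries numbered 3 or 4, with the genotype effect taken from the other libraries. In the 5 libraries with *Xist* alone, *Elmo1*-/- mouse 2 was likewise set against the 4 numbered 3 or 4. Genotype was not in that model, so it enters these differences, as in *Elmo1* itself (1.32 there, 0.16 over all 8 libraries). There 98.8% of the 4434 had the same sign. Both shares of kept signs come from libraries on which the 4434 genes were called, so they were partly fixed in advance. The V-ATPase median was 0.55 with and without the term and that of resorption was 0.78 in place of 0.93. In contrast, the median of interferon-stimulated genes went from -0.36 to 0.04 and that of macrophage genes from -0.36 to -0.14. Hypoxia-inducible genes went from -0.19 to 0.03, and the list of fatty acid synthesis and LXR targets from -0.55 to -0.21. The cell cycle median was -0.41 in place of -0.52, and DNA replication -0.31 in place of -0.21. With the term, 9 V-ATPase genes, 3 each of resorption, the TCA cycle and the lysosome, 2 each of the podosome and respiratory chain and 1 repressor were called higher, and no member of a functional list was called lower. For the sex-linked pattern itself 825 autosomal genes were called, 334 higher and 491 lower in the libraries with *Xist*. These estimates contrast *Elmo1*-/- mouse 2 with the 3 other libraries numbered 1 or 2, so that mouse and the pattern cannot be told apart within those numbers.

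Single genes differed in what the term left, which again rests on where *Elmo1*-/- mouse 2 stood. *Ctsk* had a difference of 1.43 with the term and 1.58 without it, *Tfrc* 1.59 and 1.55, and *Wdfy1* 3.12 and 2.46. *Car2* had 0.66 in place of 1.42 and *Ncoa4* 0.20 in place of 0.82. *Mki67* had -0.59 in place of -0.97. *Siglec1* had -0.36 in place of -1.29, *Ccl8* -0.54 in place of -2.09, *Apoe* -0.80 in place of -1.91 and *Itgax* 0.06 in place of 0.98. None of the 10 genes named in this comparison was called with the term. Of the 130 called named genes, 12 kept their call with it, among them *Id3*, *Cttn*, *Sdha*, *Mdh1*, *Atp6v1a* and *Atp6v1d*.

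**Figure D5:**
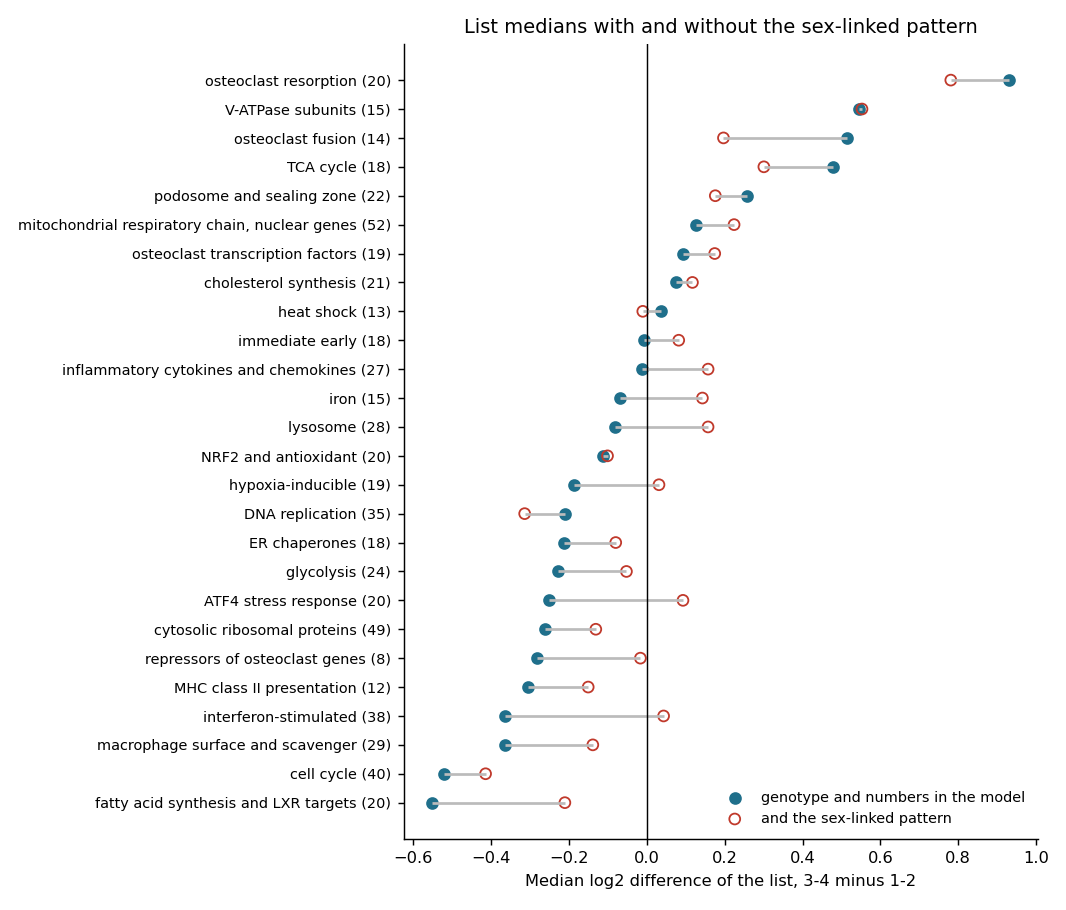
Median log2 difference, numbers 3 and 4 minus numbers 1 and 2, of each functional list with genotype and numbers in the model (filled) and with the sex-linked pattern as a further term (open). The V-ATPase median is 0.55 in both, and the median of interferon-stimulated genes is -0.36 without the term and 0.04 with it. With the term, the difference sets *Elmo1*-/- mouse 2 against the libraries numbered 3 or 4.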

How the data were processed

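RNA was sequenced from osteoclast cultures of 8 mice, 4 *Elmo1*+/- and 4 *Elmo1*-/-, each with its own library, with the TruSeq mRNA kit on an Illumina NextSeq as paired 75 bp reads. Per the labels and the study's methods, the authors used FastQC, STAR, featureCounts and DESeq2. Their versions, the strand setting, annotation and build were not given in the sources used here. What the authors deposited is a normalized signal: gene counts that DESeq2 scaled with 1 size factor for each library. The authors' own comparison columns in that table (log2 fold changes, p-values) were not used.

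Whole reads were recovered from the step between values in a library, and 100% of values came out whole with a tolerance of 0.01 of a read. The totals lay between 20905502 and 40846651 reads. Names and positions came from the GENCODE annotation of GRCm38 (mouse release 21), looked up by Ensembl identifier, of which 46005 matched and 512 did not. All 14139 genes that reached 10 in 4 or more libraries were fitted with limma 3.58.1 in R 4.3.3 (eBayes with trend = TRUE and robust = TRUE) on the log2 of normalized counts plus 1, with genotype and number pair as terms and Benjamini-Hochberg adjustment over all of them, and 13573 autosomal genes are reported. A fold change on this scale understates that of low genes. The interaction of number pair and genotype was fitted likewise. As alternatives, edgeR 4.0.16 (quasi-likelihood) and DESeq2 1.42.0 (Wald) were run on the recovered reads, beside other scalings, filters and pseudocounts, each library left out, and each genotype alone. Tests were checked on simulated data. Python 3.11.15 with pandas 2.3.3, numpy 2.4.6 and matplotlib 3.10.9 did the rest.

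Libraries were not copies of each other, since the chi-square of their reads per gene was 8.58 to 62.2. Same-numbered mice of the 2 genotypes correlated in their deviations from the genotype means with r of 0.156 to 0.703, but after removal of the number pair with 0.0208 and -0.0456. The numbers were therefore not taken as pairs. Mice are separate animals, although nothing says which were cultured together.

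The contrast, its genes and the gene lists were chosen with earlier results of these data known. The named genes were *Elmo1*, sex-linked genes, up to 4 called members of each functional list with the largest differences and a mean of at least 50, the 10 highest and 10 lowest called protein-coding genes without overlap, the 5 genes with the smallest interaction p and those at the edge of the filter. Others were picked after their values were seen, and some named genes are not reported here. Promoters were taken from RefSeq (GRCm38.p6).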

Additional observations from a re-analysis of the deposited data

Results flagged for a closer look

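In groups of 4 libraries, a library is set apart when its gap to the nearest other takes more of the group's range than Dixon's 95% limit allows, which chance passes in about 1 of 20 groups. Of 300 measures in 4 libraries, 27 (9%) passed, 11 of them in *Elmo1*-/- mouse 1, 6 in *Elmo1*+/- mouse 3, 4 each in *Elmo1*-/- mice 2 and 4, and 1 each in *Elmo1*+/- mouse 4 and *Elmo1*-/- mouse 3. Values are normalized counts.

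Among the libraries numbered 1 or 2, *Elmo1*-/- mouse 1 stood highest for the macrophage genes *C1qa* (26912), *Ctss* (74522) and *Fcgr1* (6943), the interferon-stimulated gene *Oas1g* (2753), the serine hydroxymethyltransferase gene *Shmt2* (2797), *Wdfy1* (1064) and the summed adipocyte markers (721). It stood lowest for *Sdha* (11016), *Idi1* (67.2), *Atp6v1a* (19141) and *Dtna* (4.73). *Elmo1*-/- mouse 2 stood lowest for the proliferation genes *Mki67* (6155) and *Cenpa* (807) and for *Selenbp1* (342), and highest for the chaperone *Hsp90aa1* (7768).

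Among the libraries numbered 3 or 4, *Elmo1*+/- mouse 3 stood lowest for *Id1* (83.7), *Dnaja1* (1520) and *Gpr162* (79.2) and highest for *Lif* (828), *Nos2* (1447) and *Atp6v1a* (46905). *Elmo1*+/- mouse 4 was highest for *H2-Q6* (111) and *Elmo1*-/- mouse 3 for *Samd12* (364). *Elmo1*-/- mouse 4 was highest for *Bst2* (10018) and *Ncoa4* (1318) and lowest for *Atp6v1d* (11793) and *Fbln7* (240.4).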

How the results depend on the processing

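The difference between the numbers was called for 4434 genes, for 2750 to 6652 with 1 library left out, for 73 in *Elmo1*-/- alone, and, in alternatives chosen after seeing the data, for 177 with the sex-linked pattern as a term and 1563 in the libraries with *Xist*. The other settings, among them edgeR (4493), DESeq2 (4551), scalings, filters and pseudocounts, kept it between 3501 (plain empirical Bayes) and 4837 (no genotype term). Distinct called list members numbered 217 to 381 with 1 library left out, 10 in *Elmo1*-/- alone, 21 with the sex-linked term and 153 in the libraries with *Xist*. The interaction gave 9 calls in DESeq2 and 0 to 233 with 1 library left out, and the genotype 6 in DESeq2, 2 without a filter and 1 to 3 with 1 library left out. The cause of these differences was not tested.

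The replicate number as a random block gave 2220 genes called higher and 2039 lower, and as a fixed block 0 for the interaction and 1 for the genotype, so the block changed no count by over 1.5 times. The sign turned for *Nos2* (0.092 with the sex-linked term, 0.14 in the libraries with *Xist*), *Ddit4* (0.039) and *Klf2* (0.011) in the libraries with *Xist*, and *Hspd1* (-0.010), *Osgin1* (0.037) and *Egr2* (-0.029) with the term. Of 130 called named genes, 124 never turned over 24 alternatives, 96 kept their call in every library left out and 15 in every alternative planned at the start. In *Elmo1*-/- alone 114 lost the call, and 114 did so with the sex-linked term. *Elmo1* differed between genotypes by -2.47 to -2.40. There were 2 mice per genotype and number, and 1 library separated the numbers from the sex-linked pattern. The effect of depth was not tested.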
